A study of Mus musculus with 6 samples.

Results

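The analysis concerned 5 genes, Sox9, Sox4, Sox11, Hmga2 and Hmga1, of the 31055 features in a single-cell RNA-sequencing count matrix of mouse lung tumor cells. The genes were taken by symbol, each matched 1 row, and they were chosen as candidate factors of tumor progression. The rule uses no measured value, although earlier results of these data were known when it was set. Sox9, Sox4 and Sox11 encode transcription factors with an HMG-box DNA-binding domain. Sox9 marks the distal tip progenitors of the developing lung, and Sox4 and Sox11 are closely related factors of the SoxC group that are widely expressed in embryonic and repairing epithelia. Hmga2 and Hmga1 encode small proteins that bind AT-rich DNA through AT hooks and alter chromatin. Hmga2 is largely silent in normal adult tissue, is repressed through its 3′ untranslated region (UTR) by the let-7 microRNAs, and is a known marker of advanced mouse lung adenocarcinoma.

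All mice carried Lkb1XTR/XTR and Rosa26LSL-tdTomato on a mixed C57BL/6J and 129 background. Lkb1 (gene symbol Stk11) is a kinase and tumor suppressor. The XTR allele, which comes from 1 targeted embryonic stem cell clone, holds an inverted gene trap with a GFP reporter in the first intron. Lentiviral Cre given through the trachea turns the trap on, so that GFP replaces functional Stk11 transcript, and FLPo-ERT2 with tamoxifen removes the trap again. The 3 mice labelled Restored carried FLPo-ERT2 and received tamoxifen. Of the 3 labelled NonRestored, 1 lacked FLPo-ERT2 and received tamoxifen, 1 lacked it and received vehicle, and 1 carried it and received vehicle. Male and female mice were mixed, tumors had grown for 20 weeks and treatment lasted 2 weeks. Cells were sorted for tdTomato and against CD45, CD31, F4/80 and Ter119. Cre exposure was common to both cohorts.

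The 6 mice were deposited as 1 matrix, and the files used here do not tie cells to mice. Cells could therefore not be assigned to the Restored or NonRestored cohort, no comparison between mice was made and no test over samples was possible. Barcodes shared between libraries could not be counted for the same reason. Every value below describes this 1 pooled sample, and all intervals are 95% intervals for counting error alone, which leave out the spread among mice and tumors. Intervals of pooled UMIs also leave out the clumping of UMIs in single cells. After removal of cells with fewer than 500 genes or with more than 20% mitochondrial UMIs (unique molecular identifiers, each counting 1 captured transcript), 12183 of 16017 cells remained, with a median of 19348 UMIs.

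Gates were set in UMIs per 10000 UMIs of a cell. The ATII gate (surfactant gene Sftpc at least 500, Hopx under 2, keratins Krt8 plus Krt18 under 50) held 6975 cells with a median of 21660 UMIs. The ATI gate (Hopx at least 15, Krt8 plus Krt18 under 50) held 956 cells with a median of 11796.5 UMIs. The keratin-high gate (Krt8 plus Krt18 at least 50) held 1183 cells with a median of 23490 UMIs. A further 1129 cells had Sftpc of at least 500 and a Hopx value between the ATII and ATI limits. All 12 ATII markers and all 12 ATI markers were detected in each gate. The summed ATII markers stood at 219924 counts per 1000000 UMIs (CPM) in the ATII gate, 60746 in the ATI gate and 33309 in the keratin-high gate. The summed ATI markers stood at 2240, 16171 and 5560 CPM, and 10 keratin and other transitional-state markers at 2496, 5823 and 19914 CPM. ATI-gate cells thus kept a high Sftpc level, 47497 CPM, and the gate names are used below only as names of these limits.

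In the GENCODE annotation of the GRCm38 build, Sox9 (ENSMUSG00000000567) lies on chromosome 11 at 112782224 to 112787760 on the plus strand. Sox4 (ENSMUSG00000076431) is a single-exon gene on chromosome 13 at 28948919 to 28953713, minus strand, and Sox11 (ENSMUSG00000063632) a single-exon gene on chromosome 12 at 27334264 to 27342574, minus strand. Hmga2 (ENSMUSG00000056758) spans 120361275 to 120476469 on the minus strand of chromosome 10, and Hmga1 (ENSMUSG00000046711) spans 27556497 to 27563674 on the plus strand of chromosome 17. Whether the counting used the strand is not given in the sources used here. Sox4 overlaps Gm26735 on the opposite strand, which had 2252 UMIs against 57080 for Sox4 in kept cells. The 3′ end of Hmga1 overlaps AI413582 on the opposite strand, with 3340 UMIs against 893. Hmga1 also has a near-identical single-exon copy, Hmga1b (ENSMUSG00000078249, chromosome 11, 120762794 to 120764419). Of the 90-base windows in the last 500 bases of the 17 coding Hmga1 transcripts, a median of 78.1% per transcript occurred letter for letter in Hmga1b, so the 2 genes share reads and their separate counts are uncertain.

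The sequence below is shown because Hmga2 is the member with a known microRNA control in its 3′ UTR. The microRNA itself was not measured. The mature form, from RefSeq (GRCm38.p6), is printed with the seed (bases 2 to 8) in capitals, and the same seed was found in all 8 mature let-7 5p microRNAs of the table.
mmu-let-7a-5p: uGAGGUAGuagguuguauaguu
The 7-base complement of this seed, CTACCTC, was searched on the transcript strand in the longest annotated 3′ UTR of every coding gene. It was present in 9.02% of 21039 genes. Hmga2 held 4 copies in 3014 bases, Hmga1 held 1 in 1183 bases, and Sox9, Sox4 and Sox11 held none in 2250, 2780 and 6957 bases. At least 4 copies were found in 12 genes. The 4 Hmga2 copies, in capitals within 22 bases of the GRCm38 transcript, and the Hmga1 copy read as follows.
Hmga2 match 1, chr10:120364224-120364245, minus strand: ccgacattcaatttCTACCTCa
Hmga2 match 2, chr10:120362987-120363008, minus strand: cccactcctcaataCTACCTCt
Hmga2 match 3, chr10:120362549-120362570, minus strand: tgatttgcaaggaaCTACCTCc
Hmga2 match 4, chr10:120361691-120361712, minus strand: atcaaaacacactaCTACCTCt
Hmga1 match 1, chr17:27563278-27563299, plus strand: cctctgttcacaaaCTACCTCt
Hmga1b carried the same 22 bases at chr11:120763999-120764020, plus strand. These matches describe the letters only and say nothing of repression in these cells.

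The members did not share 1 pattern across the gates. Sox9 stood at 14.2 CPM (95% Poisson interval 13.7 to 14.8) in the ATII gate, 6.54 CPM (5.57 to 7.63) in the Sftpc-high cells with intermediate Hopx, 2.92 CPM (2.08 to 4.00) in the ATI gate and 18.8 CPM (17.3 to 20.4) in the keratin-high gate. The order was keratin-high, ATII, intermediate, ATI, and no neighboring intervals overlapped. Sox9 UMIs were clumped, however, with 60.3% of those in the ATII gate in 3.70% of its cells. The Poisson intervals are therefore too narrow for the spread among cells. Sox4 was ordered differently, at 309 CPM (300.1 to 319) in the ATI gate, 280.3 CPM (274 to 286) in the keratin-high gate, 246 CPM (239.6 to 252) in the intermediate cells and 187 CPM (185 to 189) in the ATII gate. Hmga2 stood at 5.15 CPM (4.38 to 6.02) in the keratin-high gate, 1.05 CPM (0.574 to 1.76) in the ATI gate, 0.334 CPM (0.251 to 0.436) in the ATII gate and 0.203 CPM (0.0659 to 0.474) in the intermediate cells. Its ATII and intermediate intervals overlapped, and 136 of its 158 keratin-high UMIs lay in 14 cells, described below. Hmga1 stood at 10.7 CPM (9.54 to 11.9) in the keratin-high gate and between 2.02 and 2.27 CPM in the other classes, whose intervals overlapped. Sox11 was almost absent, with 23 UMIs in 15 of the 12183 cells.

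**Figure D1:**
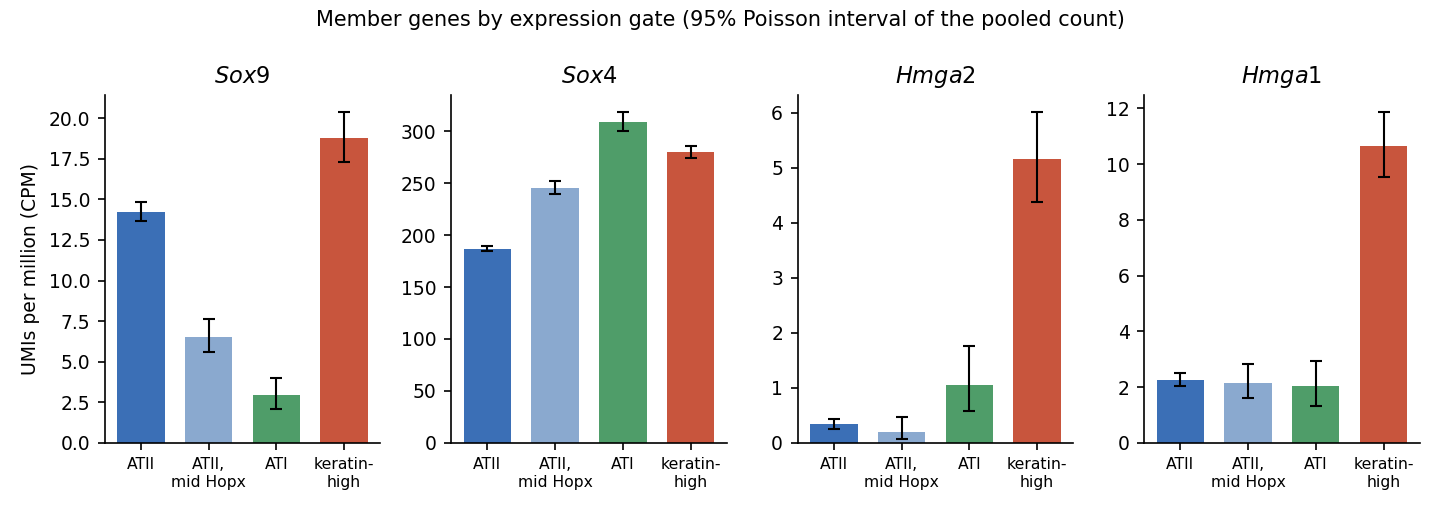
Pooled CPM (linear axis from 0) of Sox9, Sox4, Hmga2 and Hmga1 in the ATII gate (6975 cells), Sftpc-high cells with intermediate Hopx (1129), the ATI gate (956) and the keratin-high gate (1183). Error bars are 95% Poisson intervals of the pooled count and do not include variation among mice. Sox9 is lowest and Sox4 highest in the ATI gate, while Hmga2 and Hmga1 are highest in the keratin-high gate. For Hmga2 this rests on 14 keratin-high cells with 136 of its 158 UMIs in that gate, without which its level there is 0.732 CPM.

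Free RNA in droplets can place UMIs in cells that do not express a gene. In 82 kept cells with myeloid markers (median 23683.5 UMIs), Sox4 stood at 12.7 CPM (8.15 to 18.9), far under every gate, Sox9 at 1.06 CPM (0.128 to 3.83, 2 UMIs) and Hmga2 at 0 UMIs. In 262 cells with fibroblast markers, Hmga2 had 0 UMIs, where 3 UMIs would correspond to 0.701 CPM, so the Hmga2 levels of the ATII gate and the intermediate cells are under what these reference cells could detect. The Sox9 interval of the ATI gate overlapped that of the myeloid cells. Sox4 was not particular to epithelial gates, with 359 CPM (341 to 378) in the fibroblast-marker cells and 336 CPM (309 to 365) in 131 endothelial-marker cells.

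Shares of cells were compared at matched depth. After each cell was thinned to 5000 UMIs (shallower cells left out), a Sox9 UMI was found in 5.05% of 6772 ATII-gate cells (Clopper-Pearson interval 4.54 to 5.60), 0.951% of 841 ATI-gate cells (0.412 to 1.87) and 6.06% of 1090 keratin-high cells (4.71 to 7.64). The unthinned shares were 13.7%, 2.51% and 19.4%. For Sox4 the thinned shares were 49.3% (48.1 to 50.5), 68.6% (65.4 to 71.7) and 63.2% (60.3 to 66.1), and the unthinned shares were 82.0%, 82.2% and 86.1%. Hmga1 was found in 1.17% (0.925 to 1.45), 1.07% (0.490 to 2.02) and 3.76% (2.71 to 5.07) of thinned cells, and in 4.97%, 2.82% and 16.8% unthinned. Hmga2 was found in 0.207% (0.113 to 0.347), 0.595% (0.193 to 1.38) and 1.28% (0.704 to 2.15) of thinned cells, and in 0.559%, 1.26% and 2.70% unthinned. Among the myeloid-marker cells a thinned Sox9 UMI was found in 0 of 72, where 3 cells would be 4.17% and the Clopper-Pearson bound on cells with a UMI is 4.99%, which overlaps the ATII-gate interval. A Sox4 UMI was found in 4.17% (0.868 to 11.7).

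Against the ATII gate, keratin-high cells had 15.4-fold more Hmga2 (exact conditional interval of the ratio 11.2 to 21.4) and 4.71-fold more Hmga1 (4.04 to 5.48). Without the cells of 3 or more Hmga2 UMIs, described below, the Hmga2 ratio was 3.11 (1.75 to 5.40) and the gene no longer reached 1 CPM. With all cells the 2 genes were the only members past 2-fold, with the filter of at least 1 CPM averaged over both arms. Of 11828 genes passing that filter, 15.4% were at least 2-fold higher and 6.24% at least 2-fold lower in keratin-high cells, so a 2-fold difference was common. Sox9 differed 1.32-fold (1.20 to 1.45) and Sox4 1.499-fold (1.46 to 1.54). The median of abundant genes was itself 0.35 higher on the log2 scale, and relative to it Sox9 differed by 0.05 and Sox4 by 0.23. Counted together, Hmga1 and Hmga1b differed 4.70-fold (4.12 to 5.36), and AI413582, which overlaps Hmga1, 1.86-fold (1.70 to 2.04). More keratin-high than ATII-gate cells counted as cycling (at least 3 UMIs over 10 proliferation genes, 14.5% against 7.83%), but at 5000 UMIs per cell the shares were 2.75% (1.86 to 3.91) and 1.67% (1.38 to 2.00), with overlapping intervals, and the summed level of the 10 genes was 123 against 122 CPM. Within cells that were not cycling the levels were 5.65 CPM against 0.324 for Hmga2 and 10.9 against 2.21 CPM for Hmga1.

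The ATI gate against the ATII gate isolated Sox9. It was 4.87-fold lower (3.55 to 6.87) in ATI-gate cells and was the only member past 2-fold, where 7.38% of 11728 genes were at least 2-fold lower and 12.6% at least 2-fold higher. Sox4 was 1.65-fold higher (1.60 to 1.71), a log2 difference of 0.38 after the shift of the median gene by 0.35. Hmga1 did not differ beyond counting error (ratio 0.893, 0.580 to 1.32). Hmga2 was 3.14-fold higher (1.61 to 5.73) but rested on 14 UMIs and did not reach the 1 CPM filter.

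Keratin-high cells against the ATI gate separated 3 of the 5 members. Sox9 was 6.44-fold higher (4.65 to 9.15), Hmga1 5.27-fold higher (3.56 to 8.12) and Hmga2 4.91-fold higher (2.84 to 9.19). The Hmga2 difference rested on 14 keratin-high cells with 3 or more Hmga2 UMIs, and without them the ratio was 0.698 (0.342 to 1.48), the opposite direction with an interval that holds 1. These cells were picked by Hmga2 itself and the ATI gate held 0 of them, so leaving them out could only lower the ratio. Here 8.38% of 11832 genes were at least 2-fold higher and 5.4% at least 2-fold lower. Sox4 was nearly level, at a ratio of 0.906 (0.873 to 0.940). Within the keratin-high gate, the 127 cells that also had Hopx of at least 15 were set beside the rest. Sox9 had 2 UMIs in them (0.936 CPM, 0.113 to 3.38) against 20.2 CPM (18.5 to 21.9) in the other 1056 keratin-high cells. Hmga1 stood at 1.87 CPM (0.510 to 4.80) against 11.3 CPM (10.1 to 12.6), and Hmga2 at 1 UMI against 157. Of those 157 UMIs, 136 lay in the 14 cells with 3 or more, and without them Hmga2 stood at 0.468 against 0.753 CPM (ratio 0.622, 0.0150 to 3.87). Sox4 stood at 243 CPM (223 to 265) against 283 CPM (277 to 289). The intervals of Sox9, Hmga1 and Hmga2 in the 127 cells overlapped those of the ATI gate and that of Sox4 lay under it, while the summed transitional-state markers, 16092 CPM, lay far above the 5823 CPM of the ATI gate.

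Along continuous keratin the 4 genes parted further. These bins, and those of Hopx below, held all kept cells within their limits, cells with non-epithelial markers among them. The 262 fibroblast-marker cells had low keratin (Krt8 88.8 and Krt18 85.3 CPM). The part of such cells in the levels of the lowest bins was not tested. Sox9 stood at 4.82 CPM (3.68 to 6.20) in the 902 cells with fewer than 2 keratin UMIs per 10000, at 13.9 CPM (12.7 to 15.2) between 20 and 40, at 7.46 CPM (5.75 to 9.53) between 40 and 50, and at 26.2 CPM (22.9 to 29.9) between 100 and 200. Hmga1 went from 1.53 CPM (0.918 to 2.38) in the lowest bin to 14.4 CPM (11.9 to 17.2) between 100 and 200. Hmga2 stood at 4.87 CPM (3.37 to 6.80) between 50 and 60, at 7.36 CPM (6.02 to 8.91) between 60 and 100, at 2.27 CPM (1.37 to 3.55) between 100 and 200, and at 0 UMIs in the 40 cells above 200 (Poisson interval up to 3.496 CPM, which reaches past the bin before it). These levels rested on a few cells with 3 or more Hmga2 UMIs. Such cells numbered 3 with 30 of the 34 UMIs between 50 and 60, 9 with 94 of 105 between 60 and 100, and 2 with 12 of 19 between 100 and 200. Without them the 3 bins stood at 0.580 CPM (0.158 to 1.49), 0.793 CPM (0.396 to 1.42) and 0.853 CPM (0.343 to 1.76), with overlapping intervals. Sox4 was lowest between 2 and 5 (153 CPM, 149 to 157) and highest between 20 and 40 (314 CPM, 308 to 320), and returned to 187 CPM (162 to 215) in the 40 cells above 200. Along Hopx, in cells under the keratin limit, Sox9 went from 14.5 CPM (13.9 to 15.1) in cells under 1 Hopx UMI per 10000 to 1.07 CPM (0.221 to 3.13) between 40 and 80. Sox4 went from 194 CPM (191 to 196) to 293 CPM (273 to 313) over the same bins. Hmga1 ran between 1.14 and 3.54 CPM along Hopx with no steady direction.

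**Figure D2:**
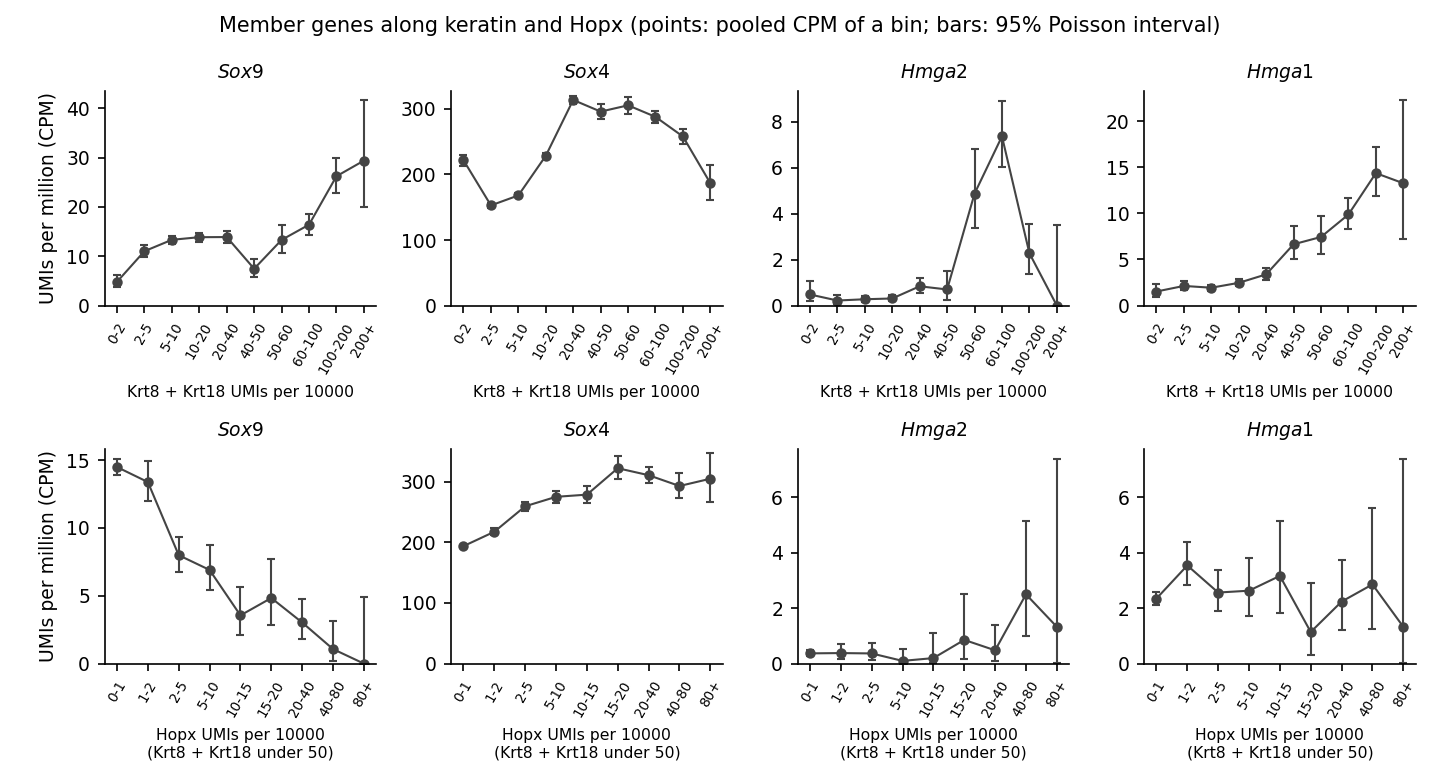
Pooled CPM (linear axis from 0) of Sox9, Sox4, Hmga2 and Hmga1 in bins of Krt8 plus Krt18 (top row, all kept cells) and of Hopx (bottom row, cells under the keratin limit), both in UMIs per 10000. Cells with non-epithelial markers are included in both rows. Points are bins and bars are 95% Poisson intervals. Hmga2 is highest at 7.36 CPM between 60 and 100 keratin UMIs, where 9 cells hold 94 of its 105 UMIs, Hmga1 reaches 14.4 CPM between 100 and 200, and Sox9 goes from 14.5 to 1.07 CPM along Hopx up to the bin ending at 80.

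Hmga2 was concentrated in very few cells. Of 247 Hmga2 UMIs in kept cells, 152 (61.5%) lay in 16 cells with 3 or more, which are 0.131% of the cells. Their Hmga2 counts ran from 3 to 20 with a median of 9.5. Keratin-high cells made up 14 of them and ATII-gate cells 2, none had non-epithelial markers, and 3 were cycling. All 16 had at least 169 tdTomato UMIs, and Ptprc (CD45, leukocytes) and Pecam1 (CD31, endothelium) had 0 UMIs in them. Their median depth was 39734.5 UMIs against 23334 in the other keratin-high cells, and the part of depth or of doublets in the grouping was not tested. In the remaining 1169 keratin-high cells Hmga2 had 22 UMIs, or 0.732 CPM (0.459 to 1.11), a level below the 1.05 CPM of the ATI gate with overlapping intervals. Without the 16 cells the keratin-high ratio to the ATII gate was 3.11 (1.75 to 5.40) and the gene no longer reached the 1 CPM filter. Whether these cells came from 1 mouse or from several cannot be told apart here.

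The other members were higher in the same cells. In the 14 keratin-high cells with 3 or more Hmga2 UMIs, Hmga1 stood at 58.6 CPM (41.2 to 80.7) against 9.65 CPM (8.58 to 10.8) in the other keratin-high cells. Sox9 stood at 87.1 CPM (65.6 to 113) against 17.4 CPM (15.9 to 18.9), and Sox4 at 459 CPM (408 to 515) against 277 CPM (271 to 283). The values varied from cell to cell. Sox9 ran from 0 to 14 UMIs with a median of 1.5, Sox4 from 0 to 62 with a median of 18, and Hmga1 from 0 to 16 with a median of 1.5. In the cell with most Hmga2, 20 UMIs, there were 62 Sox4, 4 Sox9, 3 Hmga1 and 1 Sox11 UMIs. One cell of 99612 UMIs held 16 of the 37 Hmga1 UMIs. Of the 23 Sox11 UMIs in the data, 7 lay in 3 of the 16 cells, and the 3 Sox11 UMIs of the whole ATII gate lay in its single cell with 13 Hmga2 UMIs.

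**Figure D3:**
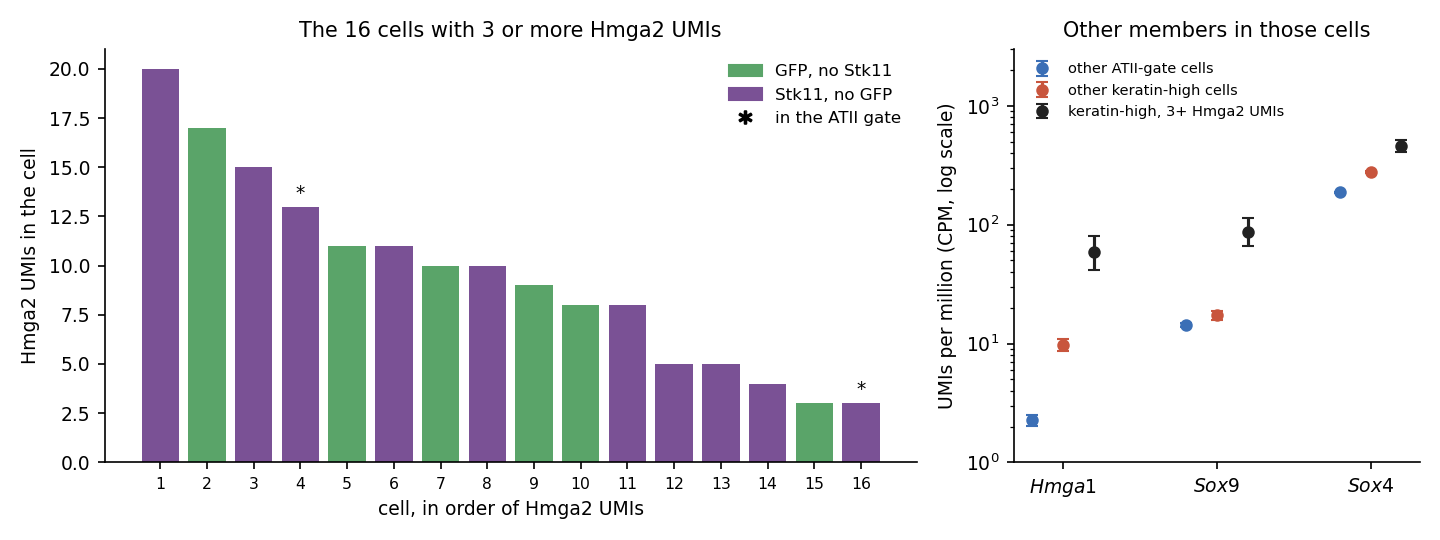
Left, Hmga2 UMIs (linear axis from 0) in each of the 16 cells with 3 or more, colored by whether the cell had GFP or Stk11 UMIs, with the 2 ATII-gate cells starred. Right, CPM on a log axis of Hmga1, Sox9 and Sox4 in the other ATII-gate cells, the other keratin-high cells and the 14 keratin-high cells among the 16, with 95% Poisson intervals. All 3 genes are highest in the cells with Hmga2, for instance Hmga1 at 58.6 against 9.65 CPM.

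The 14 cells differed from other keratin-high cells in many more genes, listed here among genes of at least 20 CPM found in at least 50% of cells of the arm where they were higher, a choice made after the values were seen. The 5 with the greatest fold were Tns4, a tensin of focal adhesions, in 10 of 14 cells (109 against 1.96 CPM), Spp1, which encodes osteopontin, in 8 cells (798 against 15.7 CPM), Cpe, a carboxypeptidase, in 8 cells (136 against 2.73 CPM), Mcpt8, in 9 cells (939 against 22.8 CPM), and Aldh1a3, a retinaldehyde dehydrogenase, in 13 cells (1149 against 28.7 CPM). Plat (tissue plasminogen activator), Hilpda (a hypoxia-inducible lipid droplet protein) and Anxa10 (an annexin) were also among the first 12. Lower genes included Krtap17-1 (1.58 against 274 CPM), Rgs4 (3.17 against 171 CPM), Akap5 (4.75 against 131 CPM) and the MHC class II gene H2-Aa (9.50 against 204 CPM). Of the 12 ATII markers 10 were at least 2-fold lower in the 14 cells and none higher, and of the 11 ATI markers at 1 CPM or more 8 were lower and none higher. Of 11755 genes, 12.2% were at least 2-fold lower and 9.49% at least 2-fold higher. The median log2 ratio was -1.95 for the ATII and -2.33 for the ATI markers, beside -0.06 for all genes tested. Nkx2-1, the lineage factor of lung epithelium, stood at 103 CPM (79.4 to 131) against 366 CPM (359 to 373), Ager, an ATI gene, at 122 against 1711 CPM, and Sftpc at 1480 against 19624 CPM. Vim, a mesenchymal filament gene, was in 3 of the 14 cells.

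Sox9 was patchy in another way. It was found in 1460 kept cells, 383 of which (3.14% of all) had 3 or more UMIs and held 59.5% of all Sox9 UMIs. The highest cell had 26. In the ATII gate the level was graded along Lyz2, a lysozyme gene of mature ATII cells, from 20.8 CPM (19.0 to 22.7) in cells under 10 Lyz2 UMIs per 10000 to 4.75 CPM (3.74 to 5.96) in those of 300 or more. Sox4 over the same bins went from 251 CPM (244 to 257) to 153 CPM (147 to 159), and Hmga1 from 3.27 CPM (2.58 to 4.08) to 1.52 CPM (0.975 to 2.26). Among cells under the keratin limit, those of the highest Sftpc, 2000 or more UMIs per 10000, had little Sox9 (4.47 CPM, 3.67 to 5.38) and the least Sox4 (134 CPM, 129 to 139). In the codetection of members at 5000 UMIs, 183 ATII-gate cells held both Sox9 and Sox4, where the product of the single shares gives 169. Sox4 was in 53.5% of the 342 cells with Sox9 and in 49.1% of those without. The excess was not seen within the GFP-positive cells of the gate described next (57.0% against 58.5%) or within its Stk11-positive cells (42.4% against 44.1%), nor in the keratin-high gate (56.1% against 63.7%).

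The allele offers a transcript-level split of the cells. Cells with at least 1 GFP UMI and no Stk11 UMI (3360 cells, GFP-positive) and cells with at least 1 Stk11 UMI and no GFP UMI (3367 cells, Stk11-positive) were set apart. Of the others, 29 cells had both and 5427 had neither, so a missing UMI is no sign of absence. A GFP UMI was found in 1.91% (0.622 to 4.40) of the fibroblast-marker cells (median 14623.5 UMIs) and 6.10% (2.01 to 13.7) of the myeloid-marker cells (median 23683.5 UMIs), against 25.2%, 25.5% and 54.5% of cells in the ATII, ATI and keratin-high gates. Stk11 was found in 21.0% and 22.0% of those marker cells and in 33.9%, 28.0% and 14.2% of the gates, so no class lacking it was at hand. These are classes of cells and not the labelled cohorts. GFP-positive cells were more often cycling (16.4% against 6.15%, and 4.02% against 0.970% at 5000 UMIs, though within the keratin-high gate the latter shares, 3.79% and 1.84%, had overlapping intervals and the summed proliferation genes stood at 130.5 against 179 CPM), had less Sftpc (90213 against 144403 CPM), and the 2 classes had median depths of 24516.5 and 23635 UMIs. Summed fibroblast markers were 23.8 CPM in the first and 861 CPM in the second. Within the ATII gate they were 21.4 and 57.8 CPM, with 5 and 6 cells above the limit for non-epithelial markers, and within the keratin-high gate 11.1 and 5.60 CPM. Their part in the differences below was not tested.

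Within the ATII gate, GFP-positive cells (1742) had more of 3 members than Stk11-positive cells (2353). Sox4 stood at 238 CPM (234 to 243) against 148 CPM (145 to 151), a ratio of 1.61 (1.57 to 1.66). Sox9 stood at 17.2 CPM (16.01 to 18.4) against 12.5 CPM (11.6 to 13.4), a ratio of 1.38 (1.25 to 1.52). Hmga1 stood at 2.89 CPM (2.42 to 3.41) against 1.98 CPM (1.65 to 2.36), a ratio of 1.46 (1.13 to 1.87). Its copy Hmga1b stood at 0.569 against 0.894 CPM (ratio 0.636, 0.386 to 1.02), and the sum of the 2 genes differed by 1.20 (0.967 to 1.49), an interval that holds 1. Hmga2 had 15 and 19 UMIs (ratio 1.04, 0.492 to 2.16), but 16 of the 19 lay in the 2 Stk11-positive cells with 3 or more, and without those cells the counts were 15 and 3 (ratio 6.59, 1.86 to 35.5), still under the 1 CPM filter. No member was past 2-fold, where 4.06% of 11560 genes were at least 2-fold higher and 1.12% at least 2-fold lower in GFP-positive cells. The median gene was 0.17 higher on the log2 scale, and relative to it Sox4 differed by 0.52, Sox9 by 0.29 and Hmga1 by 0.38. The antisense neighbor of Sox4, Gm26735, differed by 1.66 (1.44 to 1.91). Cells with neither transcript lay between for Sox4 (187 CPM, 183 to 191) and Sox9 (13.8 CPM, 12.8 to 14.9), at a lower median depth of 16251 UMIs.

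In the keratin-high gate the direction was the other way for Sox9 and Hmga1, and Hmga2 was lower with GFP. In 642 GFP-positive against 165 Stk11-positive cells, Hmga2 was 5.29-fold lower (3.79 to 7.39), at 3.42 CPM (2.66 to 4.34) against 18.1 CPM (14.4 to 22.4). Hmga1 was 2.26-fold lower (1.74 to 2.92), at 8.96 CPM (7.69 to 10.4) against 20.2 CPM (16.4 to 24.8). Sox9 was 1.57-fold lower (1.27 to 1.94), at 17.1 CPM against 26.9 CPM, and Sox4 was level (279 against 269 CPM, ratio 1.04, 0.978 to 1.11). With 4.87% of 11823 genes at least 2-fold higher and 4.22% at least 2-fold lower, 2 of the 5 members were lower past that limit. The differences in Hmga2 and Sox9 rested largely on the few cells described above, of which 6 were GFP-positive and 8 Stk11-positive in this gate. Without them Hmga2 stood at 0.511 CPM (0.245 to 0.939) against 1.40 CPM (0.512 to 3.04), Sox9 at 16.7 CPM (14.9 to 18.6) against 19.3 CPM (15.4 to 23.9), and Hmga1 at 8.84 CPM (7.57 to 10.3) against 14.4 CPM (11.1 to 18.5). Intervals overlapped for Hmga2 and Sox9 and did not for Hmga1. Hmga2 was then still 2.73-fold lower, with a ratio of 0.366 (0.121 to 1.23) whose interval holds 1, but its mean fell under the 1 CPM filter, and no member that passed the filter was past 2-fold. After thinning to 5000 UMIs the ratios were 1.05 (0.564 to 2.10) for Sox9 and 1.07 (0.457 to 2.88) for Hmga1, both intervals holding 1. AI413582 was also lower in GFP-positive keratin-high cells, 2.01-fold (1.67 to 2.43).

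In the ATI gate Sox9 had 7 UMIs in 242 GFP-positive cells (1.61 CPM, 0.645 to 3.31) and 23 UMIs in 266 Stk11-positive cells (5.21 CPM, 3.30 to 7.82). Sox4 stood at 350.3 CPM (333 to 368) against 263 CPM (248 to 279), the same direction as in the ATII gate. The Sox9 level of the ATI gate overlapped that of the myeloid-marker cells, and the keratin-high direction of Sox9 did not hold after thinning. Whether the difference with GFP itself differs between gates was not tested.

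**Figure D4:**
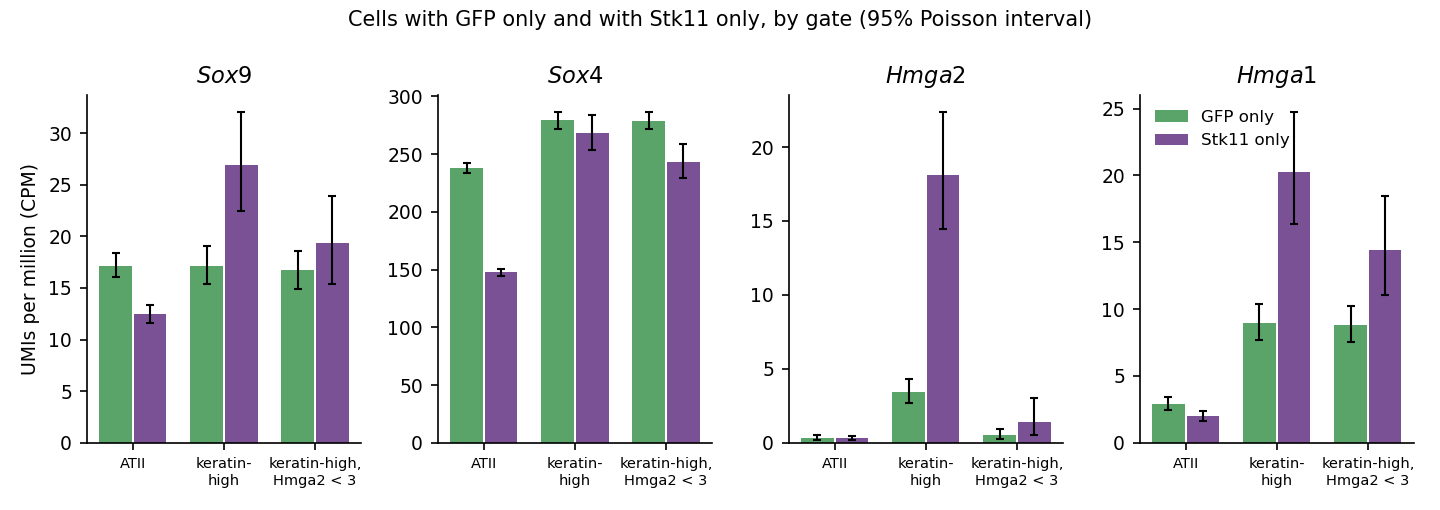
Pooled CPM (linear axis from 0) of 4 members in cells with GFP and no Stk11 (green) and with Stk11 and no GFP (purple), in the ATII gate, the keratin-high gate and the keratin-high gate without cells of 3 or more Hmga2 UMIs. Bars are 95% Poisson intervals. Removing the Hmga2 cells takes Hmga2 in Stk11-positive keratin-high cells from 18.1 to 1.40 CPM, while Sox4 in the ATII gate is 238 against 148 CPM.

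The level of Sox9 along Lyz2 was also read within each class, and whether its course differs between the classes was not tested. UMIs were clumped, with 218 in 56 cells of the lowest Stk11-positive bin and 247 in 120 cells of the lowest GFP-positive bin. In Stk11-positive ATII-gate cells Sox9 stood at 30.3 CPM (26.4 to 34.6) in the 308 cells under 25 Lyz2 UMIs per 10000 and at 2.78 CPM (1.78 to 4.14) in the 278 cells of 300 or more, a ratio of 10.9 (7.12 to 17.4). In GFP-positive cells it stood at 16.2 CPM (14.2 to 18.3) in 617 cells and at 12.7 CPM (8.63 to 18.0) in 72 cells, a ratio of 1.27 (0.874 to 1.91) whose interval holds 1. Sox9 was therefore higher in Stk11-positive cells only in the bin under 25 Lyz2 UMIs per 10000. The classes were level between 25 and 50 (22.2 CPM with Stk11, 22.5 with GFP) and between 50 and 100 (17.4 and 17.6 CPM). From 100 upward Sox9 was higher in GFP-positive cells. Between 200 and 300 it stood at 6.35 CPM (5.10 to 7.82) in Stk11-positive and 12.1 CPM (9.35 to 15.4) in GFP-positive cells. In the lowest bin a Sox9 UMI was found in 18.2% of the Stk11-positive and 19.4% of the GFP-positive cells, so the share did not follow the level. Sox4 was higher in GFP-positive cells in all 7 bins, from 270 against 170 CPM in the lowest to 204 against 144 CPM in the highest. Hmga1 intervals overlapped in every bin. Overall Lyz2 was 9647 CPM in GFP-positive and 16805 CPM in Stk11-positive cells of the gate, and mice could not be separated.

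**Figure D5:**
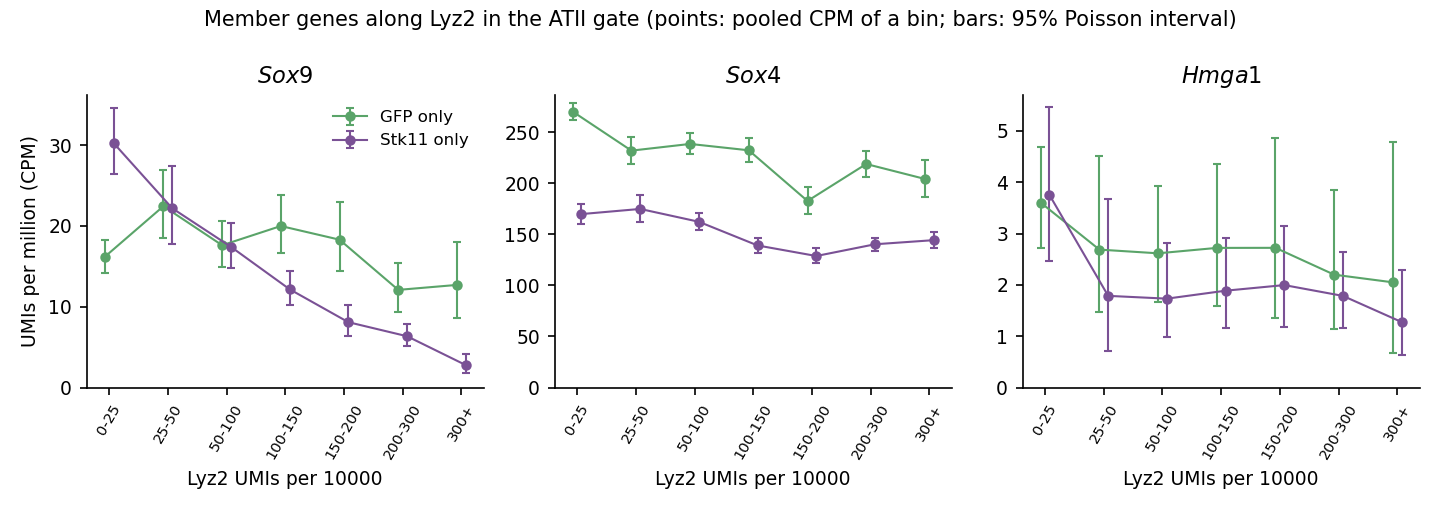
Pooled CPM (linear axis from 0) of Sox9, Sox4 and Hmga1 in ATII-gate cells binned by Lyz2 UMIs per 10000, for cells with GFP and no Stk11 (green) and with Stk11 and no GFP (purple). Points are bins and bars are 95% Poisson intervals. Sox9 goes from 30.3 to 2.78 CPM along Lyz2 in Stk11-positive cells and from 16.2 to 12.7 CPM in GFP-positive cells, and Sox4 is higher with GFP in all 7 bins.

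To see what accompanied Sox9, genes were ranked by their fold between GFP-positive ATII-gate cells with 2 or more and with 0 Sox9 UMIs and then read in the Stk11-positive cells, which the ranking had not used. Of 12 higher genes, 5 were also higher in Stk11-positive cells by their counting interval and 4 were lower, where the interval lay above 1 for 34.8% and below 1 for 17.6% of the 5632 genes of at least 20 CPM, so the count of higher genes was near the background. Single cells weigh in such ranks: the first gene, Ibsp, was in 0.578% of the 173 GFP-positive cells, and Isg15 was at near-equal shares (9.83% against 9.61%). Trf, which encodes transferrin, was higher in both (2.02-fold and 3.44-fold), as was Dlk1, an imprinted gene of progenitor cells (2.30-fold and 1.58-fold, the latter at an equal share of cells, 17.8% against 17.7%), whereas Bex2 reversed (2.04-fold higher and 0.548-fold). Of 12 lower genes, 7 were also lower in Stk11-positive cells and 2 were higher. Cbr2, a carbonyl reductase, was 1.94-fold and 4.47-fold lower, and Scgb1a1, the secretory gene of club cells, 1.82-fold and 3.96-fold lower. Sox9-containing cells were deeper, with medians of 30348 against 24667 UMIs in GFP-positive and 35103 against 24221 UMIs in Stk11-positive cells, and the part of depth was not tested.

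Cells with at least 2 UMIs of Scgb3a2, a secretory gene of airway cells, numbered 15, of which 7 were in the ATII gate and none in the keratin-high gate. They held 1 Sox9, 0 Hmga2, 0 Sox11 and 2 Hmga1 UMIs. Against other ATII-gate cells, 2 members of 5 were past 2-fold, where 12.9% of 11298 genes were at least 2-fold higher and 5.89% at least 2-fold lower. Sox9 was represented by 1 UMI (ratio 0.308, 0.0078 to 1.72). Sox4 was 2.11-fold higher (1.70 to 2.60), but 74 of its 90 UMIs lay in 1 cell of 78259 UMIs and the other 6 cells held between 1 and 5. Without that cell the ratio was 0.573 (0.327 to 0.931), the opposite direction. The 5 cells with 100 or more Scgb3a2 UMIs were in no gate, had 0 Sox9 UMIs, and held 0, 0, 5, 8 and 14 Sox4 UMIs.

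Cycling cells (979, median 33359 UMIs) had slightly more Sox9 and Hmga1 than other cells, with ratios of 1.498 (1.37 to 1.63) and 1.54 (1.29 to 1.82). Sox4 (1.00, 0.980 to 1.03) and Hmga2 (1.05, 0.711 to 1.504) were level, and no member was past 2-fold, where 4.23% of 12343 genes were at least 2-fold higher and 1.77% at least 2-fold lower. Within the ATII gate cycling cells had 18.8 CPM Sox9 (17.0 to 20.9) against 13.6 CPM (13.01 to 14.2). Within the keratin-high gate the intervals overlapped (20.0 and 18.5 CPM), and Sox4 was lower in cycling cells, 223 CPM (212 to 234) against 297 CPM (290.3 to 304).

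The wider families were mostly at low or even levels. List counts for keratin-high against ATII-gate cells are to be read beside the 15.4% higher and 6.24% lower among all genes, and those for the ATI gate beside 12.6% and 7.38%. Counts with GFP in the ATII gate are to be read beside 4.06% and 1.12%. Of 19 Sox genes, 7 passed the 1 CPM filter in keratin-high against ATII-gate cells. Only Sox21 was past 2-fold, at 3.39 against 0.452 CPM, and it is named because it was the single one. Against the ATII gate, ATI-gate cells had more Sox5 (10.9 against 2.19 CPM), more Sox21 (1.87 against 0.452 CPM) and less Sox9, while Sox5 was 5.13-fold lower in keratin-high than in ATI-gate cells. Of the 9 HMG chromatin genes tested in keratin-high against ATII cells, Hmga1 and Hmga2 alone were past 2-fold. The Hmga2 call was lost to the 1 CPM filter without the cells of 3 or more Hmga2 UMIs. The abundant Hmgb1, Hmgb2, Hmgb3, Hmgn1, Hmgn2, Hmgn3 and Hmgn5 had ratios between 0.815 and 1.89. Hmgn3 was 2.02-fold higher in GFP-positive ATII-gate cells and Sox12 2.18-fold higher in GFP-positive keratin-high cells.

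Among 18 genes of the let-7 and Lin28 axis, 13 were tested in keratin-high against ATII cells, 5 were at least 2-fold higher and none lower, with a median log2 ratio of 0.33 beside 0.35 for all genes tested. Besides Hmga2, whose call was lost without the cells described above, and Hmga1 they included Ccnd2, a D-type cyclin (82.7 against 10.3 CPM), and Myc (26.6 against 5.64 CPM). In ATI-gate cells Ccnd2 was 12.5-fold and Mycn 5.43-fold higher than in ATII-gate cells, while Hmga2 did not reach the 1 CPM filter and Hmga1 did not differ beyond counting error. Among 16 genes of distal tip progenitors, 14 were tested, with 4 higher and 3 lower in keratin-high cells and a median of 0.36. The higher ones were Clu, a secreted chaperone (6348 against 343 CPM), Hmga2, Etv4 (38.2 against 12.2 CPM) and Mycn (13.6 against 4.65 CPM). The lower ones were Etv5 (31.0 against 123 CPM), the FGF receptor gene Fgfr2 (18.5 against 88.9 CPM) and Id2 (59.1 against 195 CPM). In the ATI gate 4 of 13 were higher (Mycn, Clu, Shh and Bmp4, by 5.43-fold, 4.01-fold, 2.88-fold and 2.21-fold) and 4 lower (Sox9, Fgfr2, Etv5 and Id2, by 4.87-fold, 4.01-fold, 2.42-fold and 2.34-fold). In GFP-positive ATII-gate cells Etv4 (18.6 against 8.13 CPM) and Mycn (7.12 against 2.94 CPM) were higher.

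Of 8 genes listed as SoxC targets, 5 were tested and only Tead2, a partner factor of YAP, was past 2-fold in keratin-high cells (10.2 against 1.90 CPM). It was 2.92-fold higher in the ATI gate. Stmn1, which encodes the microtubule regulator stathmin, was 2.20-fold higher with GFP in the ATII gate, where 2 of 5 were higher, beside 4.06% of all genes tested. Stmn1 was also 6.96-fold higher in cycling than in other cells, and 16.2% of the GFP-positive and 6.12% of the Stk11-positive cells of that gate were cycling. Of 20 genes of TGF-beta response and epithelial-mesenchymal transition, 15 were tested, with 5 higher and none lower in keratin-high cells and a median of 0.67. Itgb6 (123 against 6.76 CPM), Ctgf (67.1 against 4.45 CPM), Tgfb2 (17.0 against 1.31 CPM) and Fn1 (411 against 67.0 CPM) led them. The ATI gate, where Hmga2 and Hmga1 were low, shared Itgb6 (120 CPM), Ctgf (149 CPM) and Tgfb2 (42.1 CPM). Between GFP-positive and Stk11-positive keratin-high cells, Ctgf (35.4 against 182 CPM) and Clu (5160 against 12411 CPM) were lower and Tgfbi (240 against 29.9 CPM) higher. Proliferation genes, 10 in all, did not pass 2-fold between keratin-high and ATII-gate cells (none of 10, median -0.07). In the ATI gate 9 were lower, beside 7.38% of all genes tested. With GFP in the ATII gate 9 were higher, beside 4.06% of all genes tested.

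Across 10 non-overlapping cell classes, the genes most like each member were found by the Pearson correlation of log2(CPM + 1) among 10353 genes. For Sox9 they were Sgsm3 (r = 0.965), Gk (0.960) and Sh3rf1 (0.947), and for Sox4 they were Ap4m1 (0.987), Rock1 (0.974) and Rbm34 (0.967). For Hmga2 they were Klra4 (0.971), Ankrd1 (0.949) and Anxa10 (0.948), and for Hmga1 they were Klra4 (0.964), Dnajc21 (0.962) and Ereg (0.960). The 10 classes come from 1 pooled matrix and differ in depth, so these values only describe likeness. In the keratin-high class with Hopx under 15, Hmga2 stood at 6.73 CPM, against at most 1.03 CPM elsewhere. Hmga1 stood there at 12.5 CPM, against at most 5.01 CPM elsewhere. The correlations of both genes thus rest largely on that class. Klra4 ran from 0 to 31.9 CPM and Anxa10 from 0 to 26.5 CPM over the classes.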

How the data were processed

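Single cells from sorted tumor cells of 6 mice were profiled by 10x Genomics sequencing. The authors deposited 1 gene-by-cell matrix of UMI counts made with Cell Ranger 3.0.2, with mm10 among the builds named in the submitters' processing notes. No depth normalization had been applied. UMIs were summed per class of cells and divided by the summed total (CPM). Levels carry exact Poisson intervals, ratios exact conditional binomial intervals and shares Clopper-Pearson intervals, all at 95% and for counting error only. A difference was counted at 2-fold or more where the mean of both arms was at least 1 CPM, and an arm at 0 UMIs was set at 3 UMIs, without crossing equality. Cells with fewer than 500 genes or over 20% mitochondrial UMIs were left out. Non-epithelial marker cells had at least 10 UMIs per 10000 over the markers of a cell type. Doublets were kept and no caller was run. A further computation leaves out the 2% of cells with most UMIs. Coordinates and 3′ UTRs come from GENCODE M21. The ratio computation was run on simulated Poisson counts. These lack the clumping of UMIs in single cells, so they do not show how well the intervals cover in these data. Python 3.11.15, numpy 2.4.6, scipy 1.17.1 and pandas 2.3.3 were used.

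From each gene list up to 4 genes past 2-fold with the largest ratios and at least 5 CPM were named, with counts for the list, and per member the 3 most correlated genes. The members, gates and lists were chosen with earlier results of these data known. Cohorts were not compared, since cells carry no mouse of origin. A further allele that all mice shared is not reported here.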

Additional observations from a re-analysis of the deposited data

How the results depend on the processing

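Member ratios of 9 comparisons, and the counts of members past 2-fold in 7 of them, were recomputed under those of 19 alternatives that applied, 11 to 15 for each ratio. Of the 19, 3 (without the cells of 3 or more Hmga2 UMIs, without non-epithelial markers other than Tppp3, and without the Scgb3a2 cell with most Sox4) were chosen after seeing the data. Of 98 recomputed member counts, 86 stayed within 1.5 times the original. Without the cells of 3 or more Hmga2 UMIs, 1 member instead of 2 was past 2-fold between keratin-high and ATII-gate cells, 0 instead of 2 between GFP-positive and Stk11-positive keratin-high cells (in both, Hmga2 dropped under the 1 CPM filter, at ratios of 3.11 and 0.366), and the Hmga2 ratio of keratin-high to ATI-gate cells was 0.698, the opposite direction. The ATI gate held 0 of those cells, which were picked by Hmga2 itself, so leaving them out could only lower this last ratio. Between GFP-positive and Stk11-positive keratin-high cells the count was 1 with the mean of per-cell CPM, with thinning to 5000 UMIs and without the 2% of cells with most UMIs, and thinning turned Sox9 (1.05) and Hmga1 (1.07). For Scgb3a2 cells the count was 1 instead of 2 with the mean of per-cell CPM, relative to the median gene, without the deepest 2% and without the cell with most Sox4, and 0 with thinning, without cycling cells and with Scgb3a2 of at least 2 per 10000. There the Sox4 ratio turned to 0.600 with thinning, 0.568 without the deepest 2%, 0.526 without cycling cells, 0.689 with Scgb3a2 of at least 2 per 10000, and 0.573 without 1 cell. Sox11 went to 0 UMIs in keratin-high cells of at least 100, against 3 in the ATII gate. The cause was not tested. Of 606 recomputed member ratios, 510 stayed within the original interval, 87 moved outside it and these 9 reversed. The Sox9 ratio of ATI to ATII gate ran from 0.133 to 0.215, that of Hmga1 in keratin-high against ATII cells from 3.58 to 6.29, and that of Sox4 with GFP in the ATII gate from 1.44 to 1.62. The Sox9 ratio of keratin-high to ATII cells ran from 1.03 to 1.87, with 5 of 14 alternatives outside its interval, that with GFP in the ATII gate from 1.10 to 1.84, with 7 of 15 outside, and that with GFP in the ATI gate from 0, after thinning, to 0.784, with Hopx of at least 30. Because Tppp3 is expressed in keratin-high cells, 135 of them counted as cells with non-epithelial markers, and leaving out such cells with or without Tppp3 in the list changed no member count. No paired analysis was possible because the matrix does not separate the mice.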
